A study of Rattus norvegicus with 14 samples.

Results

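The comparison of high-fat diet after early-life separation comprises 1603 genomic regions of rat sperm DNA, of 8555 regions that 5 tables of pairwise group comparisons list. Members are all regions of 1 table, in which 3 libraries of the group F0_ELS-HFD stand against 4 libraries of the group F0_ELS. The animals were Wistar rats, and the males whose sperm was profiled form the F0 generation. In both groups separation of the pups from their mothers lasted 3 h daily and ran for 16 days from postnatal day 1, the treatment behind the group code ELS. An elevated plus maze test followed at about postnatal day 57, and from day 60 the ELS-HFD group ate a high-fat diet while the ELS group stayed on standard chow. Separation, the maze test and strain are thus common to both groups, and diet is the difference that the labels give. Control (F0C, 3 libraries) and high-fat diet without separation (F0_HFD, 4 libraries) complete the study. The labels give neither the age at sperm collection nor whether a library came from 1 animal or from a pool. The limma p-values below thus measure the spread between these libraries. The authors' q-values rest on the CpGs of a region and not on that spread. Group membership of the columns rests on the letter codes of the table (EC for ELS, EH for ELS-HFD).

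Reduced representation bisulfite sequencing cuts DNA at CCGG sites and reads methylation of cytosines in CpG-rich fragments, so promoters and CpG islands are over-represented. In mature sperm most CpG islands are unmethylated while the rest of the genome is highly methylated. Paternally imprinted control regions carry methylation and maternally imprinted ones do not. After fertilization most sperm methylation is erased and imprinted regions keep theirs.

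Each deposited value is the mean methylation of a region in 1 library, in percent, and differences below are ELS-HFD minus ELS in percentage points. Regions were listed by the authors' region caller because the groups differed there, with at least 10 CpGs and a deposited difference of at least 2.50 points, so the differences describe the list and are no independent test of it. Read depth per region is unknown, which leaves the counting error of each percentage unknown. Differences recomputed from the libraries had the sign of the deposited group difference in all 1603 regions and departed from its size by more than 0.5 points in 203 of them. Over all tables, promoter or intron regions of 2 germline genes that sperm keeps unmethylated lay at up to 8.19%. Intergenic regions listed for Piwil1, among these genes, lay between 0 and 97.5%. The Piwil1 region of this comparison, at -33495 bp from the start, lay between 63.9 and 97.5%. Promoter, exon or intron regions of 3 maternally imprinted genes, at most 891 bp from the start, lay between 0 and 13.1%. Farther out, exon regions listed for Zrsr1, among these genes, lay between 5.85 and 17.2%. Intron regions listed for Zrsr1 lay upstream of its start, at about -1428 and -57624 bp, and had between 1.02 and 33.3%. An intron region of the paternally imprinted Dlk1, listed in other tables and 8631 bp from the start, lay between 7.03 and 26.1%. An intergenic region listed for the paternally imprinted Zdbf2, farther from its start than this, lay between 93.5 and 99.1%. At any distance from the start, the comparison listed regions for 2 of 20 germline, 3 of 13 maternal and 1 of 5 paternal marker genes. Spearman correlations over the 1603 regions were 0.931 to 0.948 within ELS, 0.931 to 0.941 within ELS-HFD and 0.899 to 0.933 between groups. These correlations share the selection of the regions. The second ELS library, in column order, was the lowest of its group in 46.0% of regions, and the second ELS-HFD library was the lowest of its own in 49.0%.

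Methylation was lower in ELS-HFD than in ELS at 992 of the 1603 regions (61.9%) and higher at 611. The median difference was -2.75 points, and single regions ranged from -18.7 at an intergenic region nearest to Sox5 to 29.8 at one nearest to AABR07056556.1, in both of which the groups overlapped. The Sox5 value became -11.0 without the third ELS-HFD library and -29.1 without the first ELS library. Lower regions had a median level of 9.48% and higher regions one of 34.3%. All 3 ELS-HFD libraries lay below all 4 ELS libraries at 273 regions (17.0%) and above them at 114 (7.11%), together 387 or 24.1%. The authors' deposited table gives a q-value under 0.05 to 11 regions (0.686%), of which 10 were lower (0.624%) and 1 higher (0.0624%). A limma fit to logit-scaled percentages with Benjamini-Hochberg adjustment over all 1603 regions called 0 of them (0%), with a smallest adjusted p of 0.104, while 437 (27.3%) had an unadjusted p under 0.05. Leaving out the third ELS library brought 2 regions under the adjusted threshold (Ascl2 and Cul9), and leaving out the third ELS-HFD library brought 3 (Igf2r, Fam107b and AC128440.1).

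**Figure D1:**
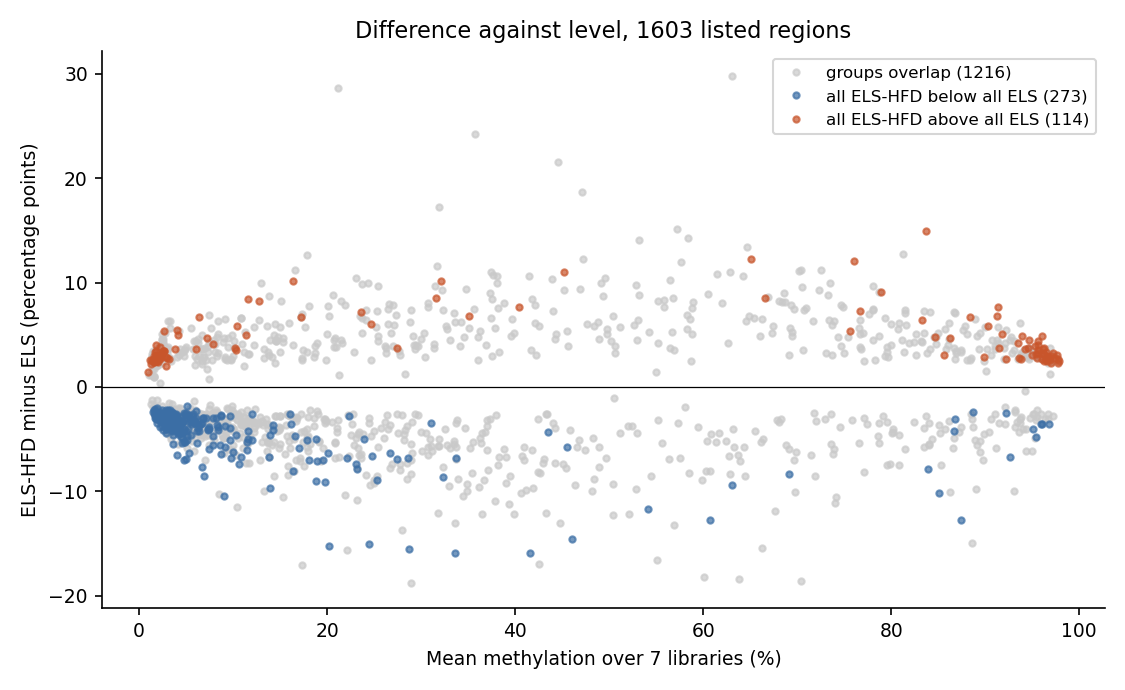
Each point is 1 of the 1603 listed regions, with the mean methylation of its 7 libraries in percent on the horizontal axis and ELS-HFD minus ELS in percentage points on the vertical axis. Blue points (273) have all ELS-HFD libraries below all ELS libraries and crowd at low levels, while red points (114) have them above and lie at both ends of the scale. The sparse band around 0 reflects the minimum deposited difference for listing. The plotted differences, recomputed from the libraries, came as close to 0 as -0.403 and 0.374 points.

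Direction went with the methylation level. Of the 225 regions with a mean over 80%, 144 were higher in ELS-HFD and 81 lower (36.0% lower), with 50 above and 13 below without overlap. Regions between 20 and 80% were balanced, with 253 of 488 lower (51.8%). Between 5 and 20%, 326 of 436 were lower (74.8%), and under 5% the count was 332 of 454 (73.1%). The result at the low end depends on which libraries set the level. With the level taken from the ELS libraries alone, 222 of 355 regions under 5% were lower (62.5%), close to the 61.9% of all regions, and with the level from ELS-HFD it was 432 of 532 (81.2%). At the high end the share lower was 39.9% and 31.1% with these settings, below that of all regions in both. Without the regions next to 5.8S rRNA genes, described further down, 81 of 207 regions over 80% were lower (39.1%). The 4 level classes were chosen after the values were seen, and a region's level and its difference come from the same libraries.

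Where the ELS against control table lists a region that overlaps a member over 80%, the control libraries can be set beside them. Over 73 such regions the median was 87.2% in ELS, 88.8% in ELS-HFD and 90.1% in control. For 80 regions under 5% the medians were 4.64% in ELS, 1.63% in ELS-HFD and 2.03% in control. Those regions were listed because ELS and control differed, and the ELS libraries serve both tables, so no test was made. In the table of ELS-HFD against control, chosen without the ELS libraries, the 60 regions over 80% had medians of 90.6% in ELS, 90.4% in ELS-HFD and 91.6% in control. Its 95 regions under 5% had medians of 3.83% in ELS, 2.33% in ELS-HFD and 4.09% in control, so which diet group lay nearer to control depended on the table that listed the regions.

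**Figure D2:**
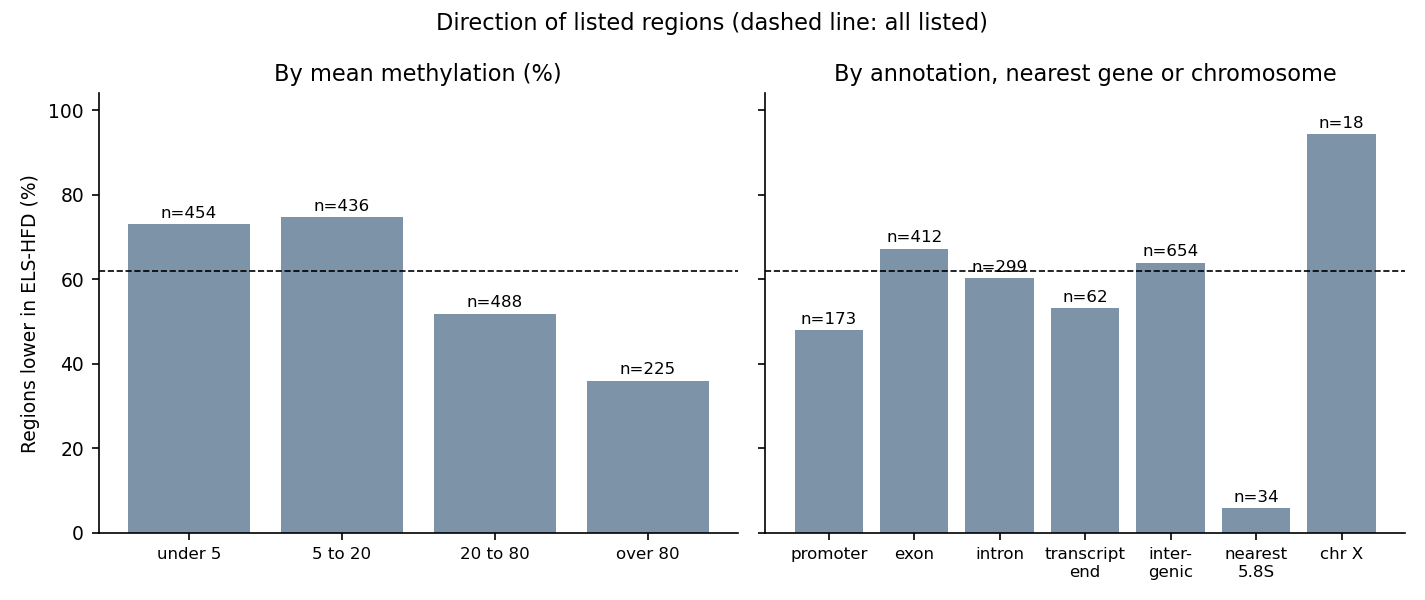
Bars give the percent of listed regions that were lower in ELS-HFD, by mean methylation over 7 libraries (left) and by annotation, nearest gene or chromosome (right), with the number of regions above each bar. The dashed line marks 61.9%, the share over all listed regions; promoters (48.0%), regions over 80% (36.0%) and regions next to 5.8S genes (5.88%) lie below it and X-chromosomal regions (94.4%) above.

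By the deposited annotation, 654 members were intergenic, 412 lay in exons, 299 in introns, 173 in promoters and 62 at transcript ends, and 3 had no class. Intergenic (418 of 654) and exon regions (277 of 412) were mostly lower in ELS-HFD, as were intron regions (180 of 299). Promoter regions were split, with 83 lower and 90 higher. At an ELS level under 5%, 44 of 100 promoter regions were lower against 178 of 255 regions outside promoters. On the X chromosome 17 of 18 regions were lower, 7 of them without overlap (38.9% against 24.1% of all regions), and the exception was a promoter region of AABR07039356.1. The median level of the X regions was 2.64%, and over all chromosomes 81.0% of the regions under 5% outside promoters were lower and 42.9% without overlap. The X regions without overlap included 2 listed for LOC690348, 1 each next to Bcor, a transcriptional corepressor, and Utp14a, a factor of ribosome assembly, and 1 next to Srsf8 at a higher level. Genes named here for the X chromosome were picked after their values were seen, apart from Srsf8.

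Promoters without overlap went in both directions. Of the 173 promoter regions, 53 carried a gene name and had groups that did not overlap (33 lower, 20 higher in ELS-HFD), which is 30.6% against 24.1% of all regions. Among regions under 5% the share without overlap was 38.3% at promoters and 42.9% elsewhere. Their mean was under 5% at 41 of the 53 and over 80% at 4. In 13 of the lower ones every ELS-HFD library was under 1%, and in 9 of the higher ones every ELS library was. The sequences of 4 such promoters are shown so that the CpGs around the measured stretches can be seen. They are RefSeq promoters of the build GRCr8, from 250 bases before to 50 after the start, in the direction of the gene, with each CG in capitals. Of the 53 promoters 32 were matched by symbol, and for 14 of these the deposited distance to the start falls in that window; those printed come from the 12 whose window holds at least as many CGs as the measured region. The start in the deposited annotation, on Rnor_6.0, may differ from the RefSeq start, so the measured stretch may lie partly outside the window.
Cul9 (chr9:21933553-21933852, plus strand): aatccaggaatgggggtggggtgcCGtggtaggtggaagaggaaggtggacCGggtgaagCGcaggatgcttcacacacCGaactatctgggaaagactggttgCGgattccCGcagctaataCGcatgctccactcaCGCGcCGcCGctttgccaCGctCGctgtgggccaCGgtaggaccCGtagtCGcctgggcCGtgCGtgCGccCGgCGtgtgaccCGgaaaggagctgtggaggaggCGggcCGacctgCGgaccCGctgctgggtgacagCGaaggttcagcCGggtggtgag
Mbd1 (chr18:70145002-70145301, plus strand): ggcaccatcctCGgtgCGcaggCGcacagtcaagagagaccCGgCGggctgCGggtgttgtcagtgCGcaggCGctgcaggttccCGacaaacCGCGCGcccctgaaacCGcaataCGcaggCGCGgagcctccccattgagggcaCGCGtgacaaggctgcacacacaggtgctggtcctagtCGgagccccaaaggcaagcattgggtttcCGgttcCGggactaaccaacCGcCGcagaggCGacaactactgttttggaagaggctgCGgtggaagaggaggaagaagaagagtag
Pcdh18 (chr2:135996777-135997076, minus strand): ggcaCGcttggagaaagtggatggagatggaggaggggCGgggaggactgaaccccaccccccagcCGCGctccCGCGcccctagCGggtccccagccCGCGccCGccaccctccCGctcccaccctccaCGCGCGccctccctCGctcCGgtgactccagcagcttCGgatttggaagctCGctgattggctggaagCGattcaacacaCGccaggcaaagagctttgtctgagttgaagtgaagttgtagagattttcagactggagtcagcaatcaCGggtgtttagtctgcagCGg
Ncapg (chr14:69645396-69645695, minus strand): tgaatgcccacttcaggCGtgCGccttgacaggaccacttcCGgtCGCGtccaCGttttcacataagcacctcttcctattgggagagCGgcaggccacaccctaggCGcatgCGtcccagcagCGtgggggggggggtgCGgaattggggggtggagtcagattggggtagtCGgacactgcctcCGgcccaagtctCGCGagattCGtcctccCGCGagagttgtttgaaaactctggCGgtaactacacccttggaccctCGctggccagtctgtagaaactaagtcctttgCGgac
These windows hold 28, 25, 22 and 21 CGs on the printed strand, against a median of 7 over 33469 RefSeq rat promoters of the same length. CCGG, the site cut in the assay (a palindrome, so 1 strand stands for both), occurs in all 4 and in 51.4% of all promoters. Both features follow from the selection, since listed regions come from cut fragments with at least 10 CpGs.

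Cul9 encodes a cullin of ubiquitin ligase complexes, and its promoter region (chr9:16747502-16747598 on Rnor_6.0, 10 CpGs, centred at -112 bp from the start) had the smallest unadjusted limma p of the table. Methylation was 4.55, 4.64, 1.33 and 3.17% in the 4 ELS libraries and listed at 0 in all 3 ELS-HFD libraries. The groups did not overlap, the log2 logit difference was -2.11 ± 0.38 (SE), and the adjusted limma p was 0.104. Mbd1 encodes a protein that binds methylated CpGs. Its promoter (chr18:70248682-70248766) had 4.26, 3.54, 3.35 and 2.95% in ELS and 0.923, 0.227 and 0.836% in ELS-HFD, again without overlap. Trrap, a scaffold of histone acetyltransferase complexes, had a promoter region at 4.01, 1.15, 9.62 and 2.63% in ELS and at 0, 0.588 and 0% in ELS-HFD. Cdkn2a, the locus of cell cycle inhibitors, had 5.52, 1.43, 2.20 and 3.11% in ELS against 0.592, 0 and 0%. Apart from the third ELS library of Trrap, at 9.62%, these values lie within a few percent of 0, where the unknown read depth matters most.

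Of the 20 higher promoters 9 had every ELS library under 1%, and 17 had a mean under 5%. Pcdh18, a protocadherin gene, had 0, 0.185, 0 and 0% in ELS and 4.10, 2.15 and 1.58% in ELS-HFD over 10 CpGs around its start (chr2:138833747-138834030). Tbc1d14, which encodes a Rab-interacting protein of autophagy, had 0, 0, 0.526 and 0.870% against 2.50, 5.45 and 3.35%. In both genes every ELS-HFD library was above every ELS library, with an adjusted limma p of 0.104. Ncapg, a condensin subunit gene, had 0, 1.01, 0 and 0% in ELS and 1.59, 6.78 and 1.40% in ELS-HFD. For Vav3 the values of ELS-HFD were 0.728, 9.33 and 0.714%, and for LOC681410 they were 0.621, 11.6 and 0.274%, so the second library was far above the others in both. The promoter of Sox10, a neural crest transcription factor, is the highest methylated of these examples, at 79.7, 72.0, 68.5 and 80.2% in ELS and 82.3, 80.9 and 89.3% in ELS-HFD. Pcdhgc3, a gene of the clustered protocadherins, held regions of both directions without overlap. The difference was -2.97 points in its promoter region and 5.47 points in its exon 1 region.

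**Figure D3:**
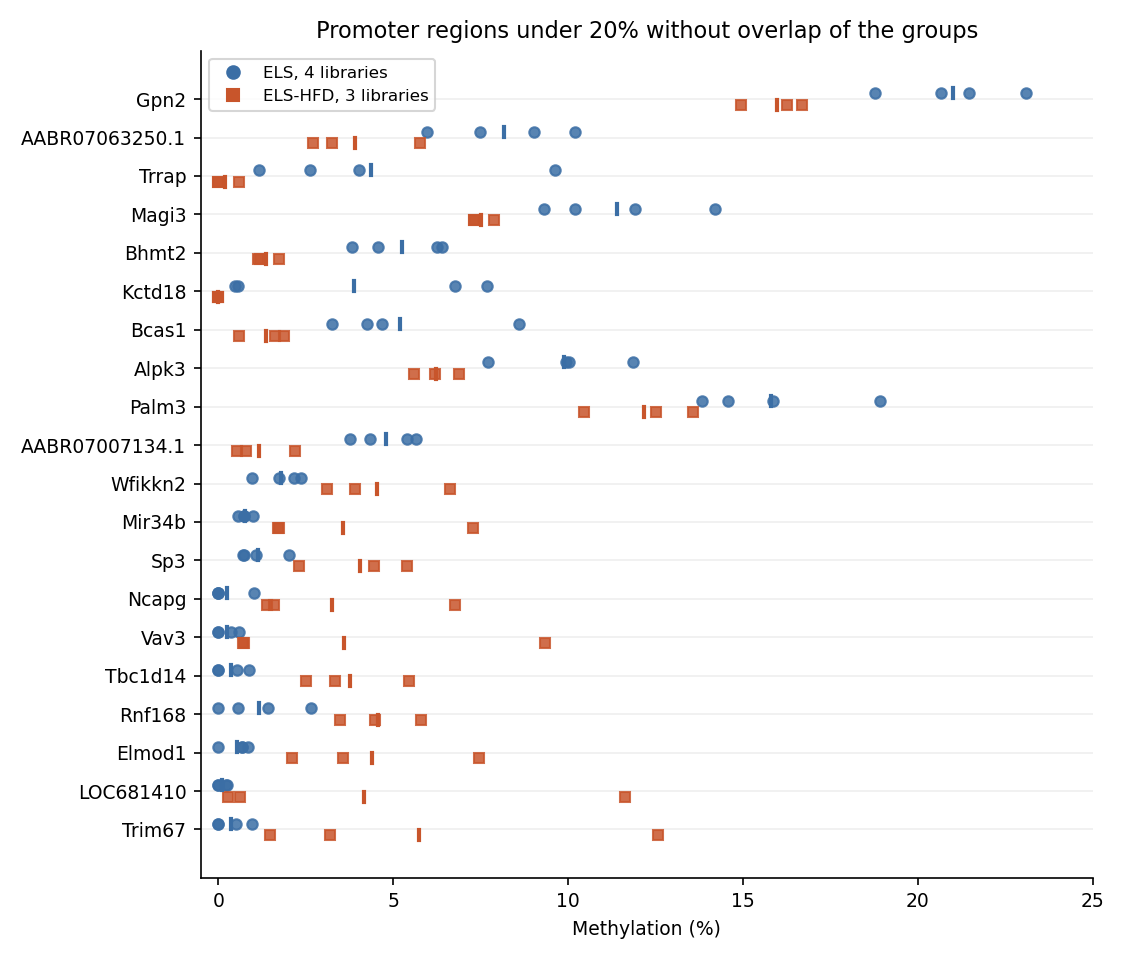
Methylation in percent (horizontal) of each library at 20 promoter regions with a mean under 20% and no overlap of the groups, the 10 largest decreases above the 10 largest increases. Circles are the 4 ELS libraries, squares the 3 ELS-HFD libraries and vertical lines the group means; the decreases run from Gpn2 (-5.03 points) to AABR07007134.1 (-3.61) and the increases reach 5.37 at Trim67.

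The 11 regions with a deposited q-value under 0.05 held 10 to 59 CpGs, 7 of them had no overlap of the groups, and 10 were lower. Their q-values in the authors' deposited table rest on the CpGs of a region and not on the spread between libraries. In limma over libraries 8 of the 11 had an unadjusted p under 0.05 and their adjusted p ran from 0.104 to 0.265. Just inside the threshold lay Grin3b (q-value 0.0434 in the authors' deposited table, -4.47 points) and just outside Kctd2 (0.0708, 24.2 points).

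Exon 1 of LOC100911196 held 5 neighbouring members between 72363417 and 72365719 on chromosome 1, and all 5 were lower. The called one among them (chr1:72363417-72363751, 18 CpGs, nearest promoter AABR07002384.1) had 6.60, 10.7, 9.05 and 16.1% in ELS and 2.41, 2.53 and 1.21% in ELS-HFD. Its difference of -8.54 points came with no overlap and a limma adjusted p of 0.104. Differences over the 5 regions ran from -8.54 to -2.84 points, 3 had no overlap, and control libraries had 2.34, 0.256 and 0.588% in the ELS against control table at the called region. At the called region ELS-HFD was nearer to control than ELS was. At 2 other members the group means were the reverse. The region from 72364114 had means of 3.995% in ELS, 1.16% in ELS-HFD and 7.39% in control. The control libraries there had 2.83, 1.32 and 18.0%, so the third raised the control mean. The region from 72365239 had means of 25.2, 18.6 and 42.5%. The difference at the latter, -6.61 points, became -2.75 without the third ELS-HFD library.

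Dlg5 encodes a scaffold protein of cell junctions and is the nearest gene of an intergenic region of 20 CpGs (chr15:50062-50201). ELS libraries had 8.69, 7.04, 7.44 and 5.85% and ELS-HFD libraries 2.91, 1.30 and 2.22%. The groups stood apart with little spread, the authors' deposited q-value was 0.000395 and the limma adjusted p 0.104. When limma was run on the 54 regions with at least 20 CpGs, it was the 1 region called, with an adjusted p of 0.0422. Zfp219, a zinc finger transcription factor gene, had a region of 34 CpGs at a transcript end (chr15:28402901-28403235) with 19.8, 27.1, 40.3 and 19.7% in ELS and 11.9, 8.89 and 13.7% in ELS-HFD. That difference of -15.2 points was also without overlap.

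The smallest q-value in the authors' deposited table, 1.23e-07, belonged to a region of 59 CpGs over an exon 7 of transcript ENSRNOT00000073718 (chr17:87622291-87622922), whose nearest gene is Arhgap21, which encodes a GTPase-activating protein. Libraries were widely spread, with 93.8, 93.4, 57.4 and 69.0% in ELS and 70.2, 48.4 and 60.9% in ELS-HFD. The groups overlapped despite the difference of -18.6 points, and the limma adjusted p was 0.208. Control libraries had 51.0, 66.0 and 61.6% at an overlapping region, and HFD libraries in the diet-only comparison 62.6, 73.1, 65.5 and 67.2%, so the 2 ELS libraries over 90% stood above all of these.

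The called region that was higher lies in an intron next to Alpl, the tissue-nonspecific alkaline phosphatase (chr5:156068848-156069014, 33 CpGs). Methylation was 72.2, 65.0, 55.7 and 69.0% in ELS and 83.1, 57.3 and 89.3% in ELS-HFD. The second ELS-HFD library lay within the ELS range. The difference of 11.1 points became 4.74 without the third ELS-HFD library and 20.7 without the second, and the limma adjusted p was 0.265. For the other 10 called regions leaving out any 1 library changed the difference by less than 1.5 times.

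Grin3b, an NMDA-type glutamate receptor subunit gene, was the nearest gene of a called region and of a second member close to it. The called region was annotated to the end of transcript ENSRNOT00000017245 and the second to the transcript end of Grin3b. In the called region (chr7:12770985-12771055) ELS had 10.1, 1.10, 7.63 and 8.03% and ELS-HFD 2.12, 1.25 and 3.33%, so the second ELS library was lower than all ELS-HFD libraries. At the second region (chr7:12771348-12771402) the values were 3.83, 2.50, 5.44 and 4.70% against 1.65, 1.20 and 1.10%, with no overlap. A region in exon 8 of Fam171a2, with Grn as nearest promoter, ran from 2.33 to 6.64% in ELS and from 0.814 to 2.04% in ELS-HFD. For RGD1560108, in exon 2, the ranges were 0.834 to 9.74% and 0.139 to 0.861%, which overlap. The region nearest to Mir6334 ran from 2.98 to 8.63% in ELS and from 0.541 to 2.10% in ELS-HFD, and that nearest to AABR07054752.1 from 23.4 to 42.0% and from 11.3 to 22.8%.

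**Figure D4:**
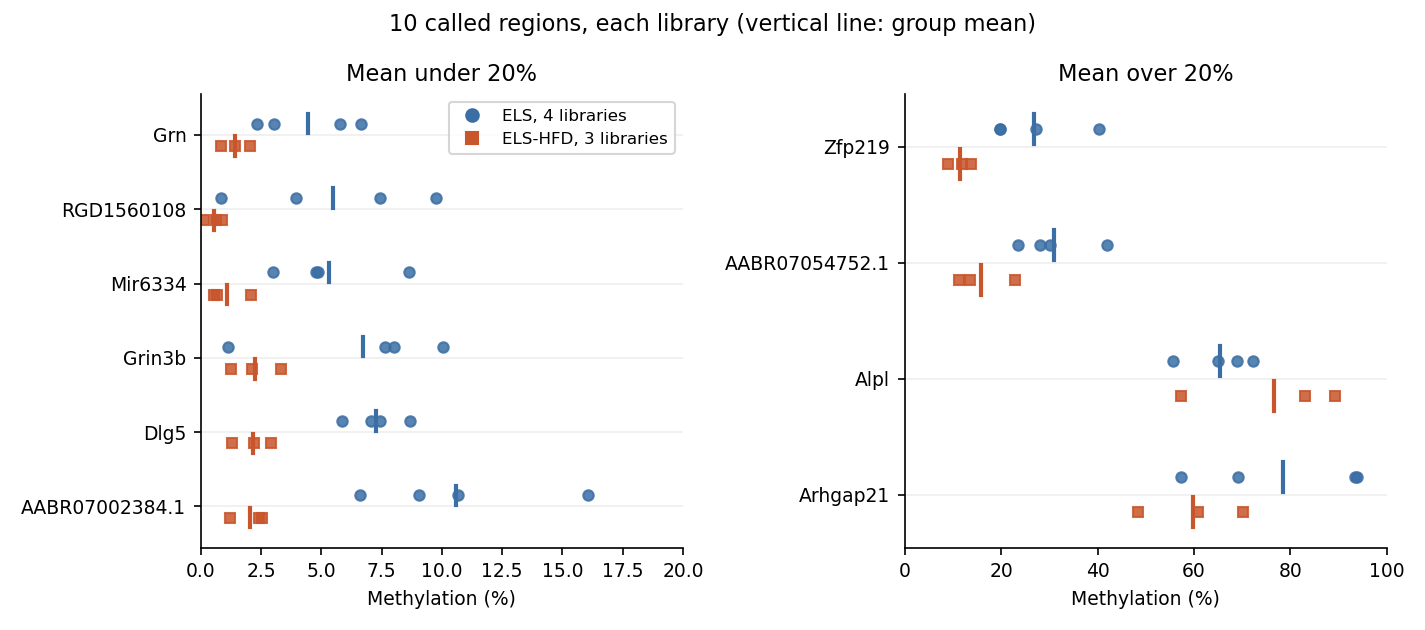
Methylation in percent of each library at 10 of the regions with a deposited q-value under 0.05, in panels for means under and over 20%. Circles are the 4 ELS libraries, squares the 3 ELS-HFD libraries and vertical lines group means; in 6 of the 10 the groups do not overlap, and in Alpl, the 1 higher region, ELS-HFD spans 57.3 to 89.3%.

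Large decreases also occurred at uncalled regions without overlap. Exon 20 of Arhgap45, also a gene of a GTPase-activating protein, had 48.3, 43.9, 51.9 and 49.5% in ELS and 32.7, 36.0 and 28.8% in ELS-HFD (chr7:12729425-12729485, -15.9 points). An intergenic region near Gja1, which encodes connexin 43 of gap junctions, had 33.7, 35.8, 35.1 and 36.8% in ELS and 24.7, 18.6 and 16.3% in ELS-HFD (chr20:37852122-37852219, -15.5 points). At Gja1 the gap between the groups was wider than the range within either, and at Arhgap45 it was about as wide as the range of ELS. At Gja1 control libraries had 34.2, 34.8 and 23.8% and HFD libraries 35.4, 32.2, 40.8 and 50.5%, so the 2 lowest of ELS-HFD were below all other groups. Decreases without overlap near Srsf8 (-14.6 points), AABR07065013.1 (-12.7) and Tm4sf20 (-11.6) shrank more than 1.5 times, to -8.05, -7.71 and -6.89, without the second ELS-HFD library for the first and the second gene and without the first ELS library for Tm4sf20. A region near RNaseP_nuc (-12.8 points) and one near Vbp1 (-10.4), a prefoldin subunit gene, were also without overlap.

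The increases without overlap were led by an exon region next to AC128440.1 (chr2:189637409-189637536), with 77.6, 74.4, 76.0 and 81.3% in ELS and 96.2, 95.1 and 85.4% in ELS-HFD. Control libraries had 68.1, 69.8 and 76.8% there and HFD libraries 69.4, 94.3, 69.5 and 74.5%, so 1 HFD library was also over 90%. Exon 3 of Kcng1, a modifier subunit of voltage-gated potassium channels, had 36.8, 39.9, 43.2 and 42.2% in ELS and 52.5, 51.7 and 50.5% in ELS-HFD, with a tight spread in the diet group. Intron 4 of Pacsin3, a gene of endocytosis, had 25.5, 32.2, 20.6 and 32.6% against 37.8, 36.5 and 39.4%. The other large increases lay near Mir6327 (12.2 points), Fam243a (12.1), AABR07035955.1 in exon 5 of Galnt17 (10.1), Fut2 (8.53), Numbl (8.49) and Mdfi (8.43). None of these increases passed the adjusted limma test (Kcng1, 0.181; Pacsin3, 0.204).

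Neighbouring members tended to share a direction. Of 79 pairs at most 1000 bp apart, 71 had the same sign (89.9%), and the members of a pair share their libraries. Runs of at least 3 members occurred 14 times, over 48 regions, and each run had 1 direction, 5 lower and 9 higher. The lower runs lay at LOC100911196, Wwc1, Cbx6, Pheta1 and Vbp1. Wwc1 encodes a scaffold of the Hippo pathway, and its 4 members over an exon 22 had differences from -5.22 to -2.70 points, 2 of them without overlap. At 1 of these the -4.65 points became -2.91 without the first ELS library. The remaining Wwc1 member, in an intron at over 90%, was higher by 2.75 points without overlap (97.6, 95.0, 95.1 and 97.3% in ELS, 99.8, 98.7 and 98.4% in ELS-HFD). Cbx6, a Polycomb subunit gene, had 3 adjoining members with -12.1, -8.24 and -3.96 points, none without overlap. Without the third ELS-HFD library the first became -6.87 and the last turned to 2.62. A separate intergenic Cbx6 member had 8.12 points, or 2.34 without the second ELS library. Higher runs lay next to 5 groups of 5.8S copies, and at AC119762.1, Cndp2 (6.82 to 7.86 points), Lfng (5.70 to 8.19) and Pou2f2 (3.29 to 6.55). Cndp2 is a dipeptidase gene, Lfng modifies Notch receptors and Pou2f2 is a POU transcription factor gene. Sema5b, a semaphorin gene, had 4 lower members, 1 of them in intron 5 without overlap (11.7, 7.36, 5.93 and 7.09% against 1.10, 0.478 and 3.42%).

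The 5.8S ribosomal RNA genes sit in tandem arrays and scattered copies, and reads of near-identical copies cannot be told apart, so these members are not independent. Of 34 members whose nearest gene is a 5.8S copy, 32 were higher in ELS-HFD, with a median of 5.55 points against -2.75 over all regions. The 4 without overlap make 11.8% of them, below the 24.1% of all regions, and 0 were called. All 18 on chromosome 7 were higher. Their mean over the 34 regions was 65.2, 67.6, 66.8 and 68.8% in the ELS libraries and 74.3, 69.3 and 72.9% in the ELS-HFD libraries. The second ELS-HFD library was close to the highest ELS library, and the others stood apart. In the table of HFD against control, which uses other libraries, 29 of 32 such regions were higher with HFD, with a median of 4.77 points. Of the 12 members that overlap a region of that table, 11 were higher with HFD there and 9 had the same direction in both tables, though library means over these 12 ran from 62.9 to 68.2% in HFD and from 57.1 to 63.7% in control and so overlapped. The other tables share libraries with these. In them 7 of 37 were higher in ELS than in control, 18 of 31 higher in ELS-HFD than in control (median 2.99 points), and 14 of 32 higher in ELS-HFD than in HFD (median -2.42). Regions nearest to other multi-copy RNAs showed no such majority, with 10 of 21 lower at 7SK, 13 of 23 at U6 and 8 of 11 at 5S.

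**Figure D5:**
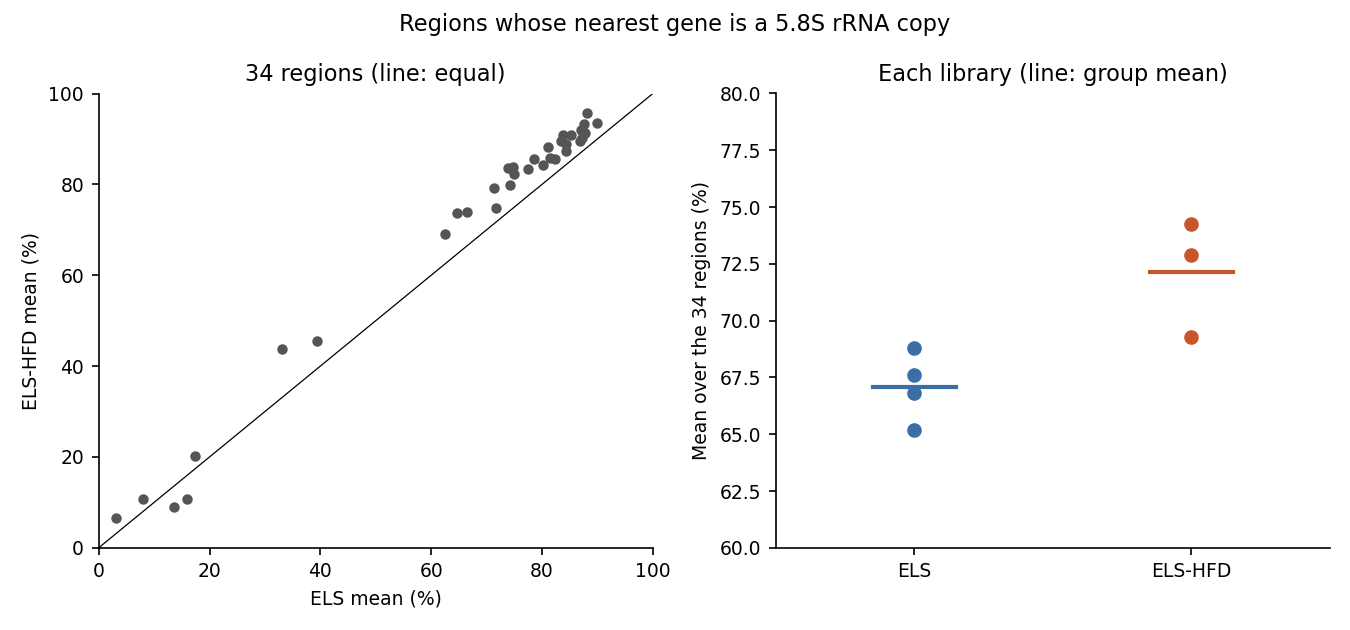
Left, mean methylation in percent of ELS-HFD against ELS for the 34 regions whose nearest gene is a 5.8S copy, with a line of equal values; 32 points lie above it. Right, the mean over the 34 regions in each library, on an axis from 60 to 80%, with group means as lines; ELS runs from 65.2 to 68.8% and ELS-HFD from 69.3 to 74.3%.

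The table of HFD against control poses the same diet question in animals without separation, with no library in common. It lists 1583 regions, of which 358 were without overlap (22.6%), and 368 members here overlap one of them. Of these 368, 202 had the same direction (54.9%), 109 lower and 93 higher in both, while 99 were lower here and higher there and 67 the reverse. With an overlap of at least 50% of both regions, 138 of 262 had the same direction (52.7%). Among the 368, groups were without overlap at 52 members here and at 42 there. Both are smaller shares than the 24.1% and 22.6% over all regions of each comparison. Groups were without overlap in both tables at 8 members, 6 with the same direction: Dennd2b, Lrp5, rno-mir-3542-1 and Upf2 higher, Snai1 and Grin3b lower. The region named for Upf2 lies in an exon of Proser2, 51595 bp from the Upf2 start, and that for rno-mir-3542-1 is intergenic. The 2 with opposite directions, Vom2r37 and Gucy2d, are described further down. Whether 8 is more than unrelated lists would share was not tested. With the overlap of at least 50% there were 4 such members, 2 with the same and 2 with opposite directions. These 8 were picked after their values were seen.

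Lrp5 encodes a Wnt co-receptor, and its intron region close to the start (chr1:218919496-218919618) had 0.109, 0.161, 0.323 and 1.03% in ELS and 4.46, 2.67 and 1.61% in ELS-HFD. Without separation the values were 0.964, 0.825 and 0.420% in control and 1.11, 3.77, 1.89 and 6.50% in HFD. Both contrasts were thus higher with diet and without overlap, at a few percent of methylation. Snai1, a transcription factor of epithelial to mesenchymal transition, had 8.49, 5.73, 6.07 and 8.81% in ELS and 2.01, 4.61 and 5.49% in ELS-HFD. There control had 9.63, 8.67 and 5.82% and HFD 4.19, 4.63, 3.84 and 3.24%. Dennd2b, a gene of Rab activation, had 8.62, 5.78, 9.90 and 9.92% in ELS, 13.1, 10.5 and 13.3% in ELS-HFD, 11.44, 10.96 and 10.65% in control and 13.8, 15.6, 15.8 and 16.2% in HFD.

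Pathway lists were read by counts, against 61.9% lower, a median of -2.75 points and 24.1% without overlap over all regions. Members were assigned by nearest gene, and the counts were not set against the length of each list. The deposited annotation placed 3 of 8 insulin and lipid regions and 0 of 2 neurotrophin regions at a transcript named for a list gene. For the homeobox list described below it was 21 of 48. The metabolic lists held few regions. Insulin and lipid metabolism had 8 regions, 4 lower and 4 higher, none without overlap and a median of 0.60 points. Fads1, a fatty acid desaturase, was higher by 9.27 points at an intergenic region, and Adipoq, the adiponectin gene, had a difference of -4.13, both with overlapping libraries. Without the third ELS-HFD library the Fads1 value became 6.12, and without the fourth ELS library the Adipoq value became -2.07. The Acacb region, in a gene of fatty acid oxidation control, had a difference of 4.69 points that turned to -3.79 without the second ELS-HFD library. Appetite and energy balance had 1 region, at Sim1, a hypothalamic transcription factor gene (2.67 points, or 0.92 without the second ELS library), and the stress hormone axis had 0. Neurotrophins and their receptors had 2 regions, both near Ngfr, the low-affinity neurotrophin receptor, at 10.5 and 9.76 points with overlapping groups. The second value became 2.82 without the first ELS-HFD library and 21.3 without the second.

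The neuronal lists held more regions. Ion channels and neurotransmitter receptors had 27 regions, 13 lower and 14 higher, 8 without overlap, with a median of 2.32 points and Grin3b as the called one. Axon guidance and cadherin adhesion had 19, of which 14 were lower and 8 without overlap (42.1%), with a median of -2.85. The median level of these 19 was 4.04%. Among all regions under 5%, 73.1% were lower and 41.9% without overlap, close to the shares of the list. Cntnap4, a neurexin family gene, had 87.3, 87.1, 87.2 and 87.5% in ELS and 70.9, 83.6 and 83.7% in ELS-HFD over exon 14. The groups were separate, and the difference of -7.90 points became -3.63 without the first ELS-HFD library. Solute carriers had 22 regions, 14 lower and 5 without overlap, with a median of -2.75. Slc7a1, a transporter of cationic amino acids, had 15.6, 15.1, 12.6 and 11.5% against 8.91, 5.28 and 6.84% at an intergenic region.

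The homeobox list held the most regions. Homeobox and patterning transcription factors had 48 regions, 25 lower and 23 higher, 10 without overlap, with a median of -2.42. Zinc finger genes had 42, with 28 lower, 12 without overlap and a median of -3.49, including the called Zfp219. Small GTPases and their regulators had 30, with 17 lower, 11 without overlap and a median of -2.44. The Wnt pathway had 8 (6 lower, 1 without overlap, median -2.99). Growth factor signalling of the FGF, TGF-beta and BMP families had 13 (9 lower, 4 without overlap, median -3.03). An exon region near Smad2, a TGF-beta signal transducer, had 18.2, 1.65, 2.19 and 5.20% in ELS and 0.497, 0 and 0.455% in ELS-HFD, and its -6.50 points became -2.70 without the first ELS library.

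Most members listed for chromatin, germline and immune genes were lower. The deposited annotation placed 6 of 14, 3 of 6 and 10 of 16 of them at a transcript named for a list gene. DNA methylation and chromatin regulators had 14 regions, 11 lower, 4 without overlap and a median of -3.52, of which 3 lie next to each other at Cbx6. Imprinted genes had 9, 5 lower and 4 higher, 2 without overlap, with a median of -2.41. Gnas, the imprinted gene of the stimulatory G protein subunit, had 7.54, 2.25, 3.21 and 5.36% in ELS and 0.556, 0.870 and 0.286% in ELS-HFD in intron 2, without overlap and with a limma adjusted p of 0.104. The promoter of Igf2r had 0.452, 0, 0.699 and 0.513% in ELS and 7.06, 13.1 and 0% in ELS-HFD, so the groups overlapped and 2 libraries made the difference. Ascl2, an imprinted placental transcription factor gene, had 6.14, 7.38, 0.609 and 5.55% against 0.489, 0.641 and 0.408%, with the third ELS library inside the range of ELS-HFD. Germline genes had 6 regions (5 lower, 1 without overlap, median -3.19). Inflammation and innate immunity had 16 (13 lower, 6 without overlap, median -2.85). Il17b, a cytokine gene, had 8.04, 2.54, 5.71 and 14.8% in ELS against 1.28, 0.521 and 0.439% in exon 3, without overlap.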

How the data were processed

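Sperm DNA was profiled by reduced representation bisulfite sequencing. Per the submitters' processing notes, reads were handled with Trim Galore, Bismark and Bowtie on Rnor_6.0, and versions are not given in the sources used here. The authors deposited region tables from metilene, per the tables' titles, with region methylation in percent per library, group means in percent, their signed difference (a score in percentage points), p-values and q-values, and counts of CpGs. From the library columns, differences (ELS-HFD minus ELS), overlap of libraries and counts were computed with Python 3.11.15 and pandas 2.3.3. limma 3.58.1 (R 4.3.3) was fitted to log2((percent + 1)/(100 - percent + 1)) over all 1603 regions, with Benjamini-Hochberg adjustment at 0.05, and tested on simulated data. Coordinates, nearest genes and classes are the deposited ones. Members, the 16 gene lists and tests were chosen with earlier results of these data known.

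Genes named were the called regions, the 10 largest increases and decreases without overlap, the 10 smallest limma p, up to 6 genes with at least 3 members, and up to 4 regions per list. Promoters without overlap and others so marked were added after their values were seen. Alternatives varied thresholds, scale, libraries, level and minimum CpGs. Promoter sequences are from RefSeq (GRCr8). 1 called region, counted in the totals, is not reported here.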

Additional observations from a re-analysis of the deposited data

Results flagged for a closer look

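A single ELS library stood apart from the others at 3 of the 105 regions examined, and chance flags about 1 in 20 groups of untied values. Only the ELS group was examined. The rule sets the gap against the range, so it always flags a library when the others are tied at 0, as at Pcdh18 and Wnt2. At the Pcdh18 promoter the second ELS library had 0.185% while the other ELS libraries were at 0. At the Wnt2 promoter the second ELS library had 2.25% and the others 0. At the intron region of Enpp6 listed for AABR07025757.1, the fourth ELS library had 92.8% and the others 97.1 to 97.6%.

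The diet difference had opposite signs with and without separation, with groups apart in both, at 2 regions. In an intron of Vom2r37 it was -4.21 points after separation and 3.83 without. In an exon of Gucy2d it was -2.93 and 4.42. The difference between the contrasts was not tested.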

How the results depend on the processing

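No paired analysis was possible because the table columns carry no replicate numbers. Of the 11 called regions, 5 had a q-value under 0.01 and 7 differed by at least 5 points. limma called 1 of 54 regions with at least 20 CpGs and, leaving out each library, 0 to 3; on the percent scale and with an offset of 5 it called 0, with 222 and 336 at an unadjusted p under 0.05. The share of lower regions was 70.4% at 20 or more CpGs, 56.1% at differences of at least 10 points, and 60.7 to 63.7% without single libraries. Regions without overlap made up 20.4% at 20 or more CpGs and 29.1 to 40.2% with 1 library fewer, which leaves fewer values to overlap. The share lower under 5% was 62.5% with the level from ELS and 81.2% with it from ELS-HFD, and 72.7 to 74.9% without single libraries. Without single libraries it ran from 33.8 to 36.4% over 80%, from 46.8 to 49.1% at promoters and from 5.88 to 8.82% at 5.8S regions, and the share in 1 direction with diet alone from 53.3 to 55.7%. The level, promoter and 5.8S alternatives were chosen after seeing the data.

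Of 840 values for 105 named regions under these alternatives, 828 kept their sign. The exceptions follow with their range over single libraries left out. Cbx6 from position 121052789 ran from -8.36 to 2.62 and was 1.23 with medians; Acacb ran from -3.79 to 9.26 (-1.93 with medians) and Ephb1 from -9.97 to 15.6 (-0.954 and -1.20 without the second and the third ELS library, -1.12 with medians). Slc46a3 ran from -1.75 to 10.5 (-1.33 with medians), Dkk2 from -9.77 to 1.96 and Zrsr1 from -0.477 to 8.15. The cause was not tested. Unknown read depth limits values near 0 most.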
